A study of Mus musculus with 60 samples.

Results

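The expression of 6 astrocyte marker genes was followed over 60 mice, in the gene table and in the exon table of a striatal RNA-Seq series. The candidates were Apoe, Cldn10, Cpe, Aqp4, Gja1, Glul, Aldoc and Gfap, and every one of these 8 that had a row in the gene table was kept. Apoe, Cldn10, Cpe, Gja1, Glul and Aldoc had a row, 6 of the 9066 genes in the table, with 41 of the 114691 rows of the exon table. Aqp4 and Gfap were not analysed here. The rule used no value of a gene beyond the presence of its row. By the study's methods, the 9066 genes were those left after filters on average count and on the connectivity of their exons.

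Each mouse gave 1 polyA library from hand-dissected striatum. The animals were HS-CC (heterogeneous stock-collaborative cross) mice, derived from 8 inbred strains and, by the study's methods, from earlier generations bred selectively for their response to haloperidol, an antipsychotic that can cause catalepsy, a loss of voluntary movement. The labels give only the sex and whether a mouse was a catalepsy responder or non-responder. Among females 13 were non-responders and 15 responders, and among males the numbers were 17 and 15. The labels give no age, no drug dose and no interval before dissection, and name no introduced allele, so that a difference by phenotype cannot be told apart from one of breeding history.

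Depth and RNA coverage were uneven between the libraries. Summed over the 9066 genes of the table, a library held between 4913122 and 21872744 recovered reads (median 14520042). Reads outside these genes are not counted, so these sums are below the total reads of a library. The libraries fell on either side of a gap, with 17 shallow libraries of at most 9507322 recovered reads and 43 deep ones of at least 12051239. The shallow libraries were those of mice 41 to 56, an unbroken run of mouse numbers, and of mouse 26. Depth class therefore cannot be told apart from anything else that this run of mice shares. The shallow libraries were spread over the groups, with 4 in each group except the male non-responders, who had 5. A 3′ bias index was computed for each library, as the median slope from 5′ to 3′ of log2 exon values over 2170 genes that did not include the 6 markers. Mice 63, 5, 4 and 62 had the highest indices, at 1.62, 0.96, 0.72 and 0.50, against 0.18 for the next mouse and a median of -0.04. They were 1 mouse from each of the 4 groups, and all had deep libraries. The results are given below with and without these mice where they matter.

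Astrocytes are the glial cells that line synapses and blood vessels, clear transmitter and ions from the space between neurons, and supply neurons with metabolites and lipids. Apolipoprotein E (Apoe) is the main lipid carrier that they secrete. Glutamine synthetase (Glul) turns glutamate taken up from synapses into glutamine. Connexin 43 (Gja1) forms the gap junctions that join astrocytes into a network. Aldolase C (Aldoc) is the brain form of a glycolytic enzyme. Claudin 10 (Cldn10) is a tight junction protein with isoforms that begin at different first exons, and carboxypeptidase E (Cpe) trims neuropeptide precursors and is also made in quantity by neurons and endocrine cells. In a dissected tissue, fewer astrocytes and less RNA per astrocyte cannot be told apart.

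The genes lie on 6 chromosomes. On GRCm38, GENCODE M21 places Apoe at chr7:19696109-19699188 on the minus strand and Cpe at chr8:64592542-64693054 on the minus strand. Glul is at chr1:153899944-153909723, Gja1 at chr10:56377330-56402513, Aldoc at chr11:78322968-78327781 and Cldn10 at chr14:118787908-118875489, all on the plus strand. The exon rows were deposited on NCBI m37, and a row is named here by its start on that build.

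Cldn10 has 2 starts in RefSeq. The promoter sequences of both are shown because the exon row nearest to the upstream start was at 0 in all mice while that of the downstream start was not. Both are from RefSeq on GRCm38.p6, from 250 bases before the start to 50 after it, on the plus strand. Capitals mark the GC box GGGCGG, the CCAAT box CCAAT, the TATA box TATAAA and the nuclear factor I motif TTGGC, each searched on both strands, where CCAAT and TTGGC can overlap in the letters GCCAAT.
Cldn10 upstream start, chr14:118787621-118787920: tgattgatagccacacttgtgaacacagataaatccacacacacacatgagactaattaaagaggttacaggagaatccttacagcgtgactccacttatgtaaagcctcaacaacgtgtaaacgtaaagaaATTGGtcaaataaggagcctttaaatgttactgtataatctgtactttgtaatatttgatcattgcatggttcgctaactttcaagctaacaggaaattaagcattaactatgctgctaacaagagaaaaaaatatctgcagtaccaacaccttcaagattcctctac
Cldn10 downstream start, chr14:118854700-118854999: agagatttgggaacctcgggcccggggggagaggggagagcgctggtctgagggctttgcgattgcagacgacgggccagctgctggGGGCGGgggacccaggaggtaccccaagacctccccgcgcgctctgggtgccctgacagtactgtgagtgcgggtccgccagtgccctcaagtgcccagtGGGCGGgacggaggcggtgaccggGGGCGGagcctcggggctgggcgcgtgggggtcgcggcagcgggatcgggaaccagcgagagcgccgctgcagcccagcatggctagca
The upstream window had 36% G and C, 4 CG pairs and 1 CCAAT box. The downstream window had 72% G and C, 27 CG pairs and 3 GC boxes, and 84.5% of all promoter windows held fewer CG pairs. Over the 32851 windows of this length, the median was 52.7% G and C and 7 CG pairs, and a GC box was found in 35.7%, a CCAAT box in 37.4%, a TATA box in 13.6% and the nuclear factor I motif in 46.7%.

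A promoter of each of the 4 other markers with an entry is shown because their RNAs varied together over mice. They come from the same source, each at the start of the gene named above, and are written 5′ to 3′ on the strand of the gene.
Apoe, chr7:19699139-19699438, minus strand: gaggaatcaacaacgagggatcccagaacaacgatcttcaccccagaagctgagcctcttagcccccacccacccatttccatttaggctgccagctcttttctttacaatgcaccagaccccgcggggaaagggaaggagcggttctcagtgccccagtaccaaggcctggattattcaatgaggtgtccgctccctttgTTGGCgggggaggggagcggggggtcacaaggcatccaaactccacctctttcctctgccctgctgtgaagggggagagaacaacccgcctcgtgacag
Gja1, chr10:56377050-56377349, plus strand: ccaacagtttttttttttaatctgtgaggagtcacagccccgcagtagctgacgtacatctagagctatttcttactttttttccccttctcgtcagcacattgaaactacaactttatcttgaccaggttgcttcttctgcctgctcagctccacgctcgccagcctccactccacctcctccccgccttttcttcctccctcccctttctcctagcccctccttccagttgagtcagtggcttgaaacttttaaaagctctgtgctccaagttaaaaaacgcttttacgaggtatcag
Glul, chr1:153899679-153899978, plus strand: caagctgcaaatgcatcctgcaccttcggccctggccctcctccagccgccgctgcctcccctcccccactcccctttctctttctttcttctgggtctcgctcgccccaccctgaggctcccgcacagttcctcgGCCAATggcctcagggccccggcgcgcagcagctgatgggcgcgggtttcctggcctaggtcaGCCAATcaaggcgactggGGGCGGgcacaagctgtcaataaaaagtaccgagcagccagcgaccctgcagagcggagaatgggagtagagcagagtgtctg
Aldoc, chr11:78322823-78323122, plus strand: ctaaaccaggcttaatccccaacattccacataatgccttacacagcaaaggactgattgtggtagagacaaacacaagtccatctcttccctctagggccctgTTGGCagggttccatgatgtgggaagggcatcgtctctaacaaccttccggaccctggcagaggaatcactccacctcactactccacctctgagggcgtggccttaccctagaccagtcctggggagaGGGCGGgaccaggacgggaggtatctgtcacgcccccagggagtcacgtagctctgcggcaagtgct
The windows shared no motif among all of them. Apoe and Aldoc each held 1 nuclear factor I motif, Aldoc and Glul each held 1 GC box, and Glul held 2 CCAAT boxes and 2 nuclear factor I motifs. The Gja1 window held none of the 4 motifs. Glul had 17 CG pairs, Apoe 10, and Gja1 and Aldoc 8 each, so that these 4 windows were above the median of 7. Other starts of Apoe and Aldoc have windows that are not shown. Those of Apoe held 11 CG pairs with 1 nuclear factor I motif, and 12 CG pairs with 2 TATA boxes. That of Aldoc held 3 CG pairs and none of the 4 motifs. The first exon row of Aldoc, at 78136470, had a median of 14, and the second, at 78137564, of 776.5.

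The 6 genes differed widely in level. Per kilobase of summed exons, the median normalised value over the 60 mice was 13936 for Cpe, 9895 for Apoe, 4366 for Glul, 3267 for Aldoc, 500.3 for Gja1 and 195 for Cldn10. The length of Gja1 was 10257 bases and includes noncoding transcripts, against 2138 to 3323 bases in the other 5 genes, which lowers its value on this scale. The ranges over mice of neighbouring genes did not overlap between Apoe and Glul, between Aldoc and Gja1 or between Gja1 and Cldn10, and overlapped between Cpe and Apoe and between Glul and Aldoc. On the same scale, the striatal neuron markers Penk and Ppp1r1b averaged 13436 and 7618, and the astrocyte glutamate transporter Slc1a2 averaged 7503.

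Apoe was at 13314 in the lowest mouse, 21156 in the median mouse and 43133 in the highest, on the scale of the deposited gene values. Its highest value was thus 3.24-fold the lowest, the widest ratio of the 6. Cldn10 was at 334, 506 and 837 in the same order. Aldoc was at 8216, 10660 and 18086. These 3 genes varied the most, with coefficients of variation of 24% for Apoe, 24.5% for Cldn10 and 20.7% for Aldoc. Glul was at 9898, 14509 and 20383, and Gja1 at 3774, 5132 and 7151. Cpe was at 28828, 36359 and 55584. The coefficients of variation of these 3 genes were 16.6%, 16.5% and 15.4%, close to the median of 16.3% over genes. By the SD of log2 values, Cldn10 exceeded 79.3% of the 8535 genes averaging at least 10, Apoe 73.6%, Aldoc 66.9%, Glul 51%, Gja1 49.7% and Cpe 39.9%.

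The same 4 mice held the top places for 3 of the genes. Mice 5, 63, 62 and 4 were the 4 highest of 60 for Apoe, for Cldn10 and for Cpe. They are the mice of highest 3′ bias. For Aldoc, mouse 5 was the highest, and mice 63, 4 and 62 were in places 3, 6 and 13. These mice stood in places 9 to 24 for Gja1. For Glul mouse 62 was the highest and mouse 4 was in place 51.

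**Figure D1:**
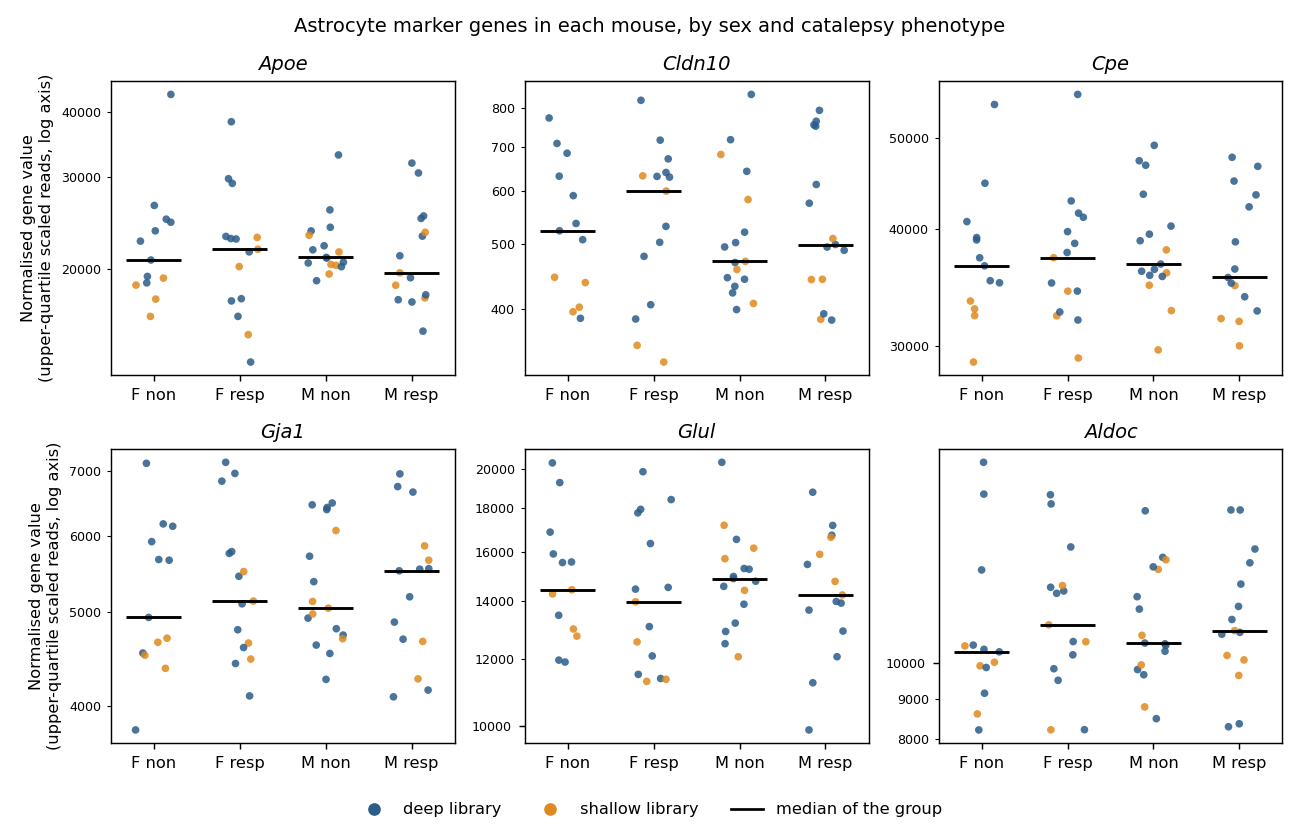
Normalised gene value (upper-quartile scaled reads, log axis) of the 6 astrocyte marker genes in each of 60 mice, by sex (F, M) and catalepsy phenotype (non, non-responder; resp, responder); each point is a mouse, coloured by depth class, and bars are group medians. The 4 groups overlap over most of their range for each gene, for instance Apoe at medians of 20842, 21850, 21078 and 19698 from left to right.

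The comparison by phenotype asks whether the astrocyte markers differ in level between catalepsy responders and non-responders. They did not pass the test: 0 of the 6 were called, and over all genes tested 9 of 8535, or 0.105%, were called (limma on log2(value + 1) with phenotype and sex as terms, adjusted p under 0.05). Apoe was at 16268, 21050 and 43133 in the lowest, median and highest of 30 non-responders, and at 13314, 21416 and 38256 in 30 responders. Glul was at 11888, 14839 and 20383 in non-responders and at 9898, 14124 and 19872 in responders. The ranges of both groups overlapped almost fully for these 2 genes. Cldn10 ran from 388 over 499 to 837 in non-responders and from 334 over 521 to 821 in responders. Cpe ran from 28828 over 36579 to 54226 in non-responders and from 29114 over 35846 to 55584 in responders. Gja1 ran from 3774 over 5013 to 7134 in non-responders and from 4085 over 5317 to 7151 in responders. Aldoc ran from 8216 over 10533 to 18086 and from 8220 over 11105 to 16438.

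On the log2 scale the difference, responder minus non-responder, was -0.06 ± 0.062 (SE) for Glul and -0.06 ± 0.081 for Apoe. It was -0.02 ± 0.056 for Cpe, 0.02 ± 0.061 for Gja1, 0.05 ± 0.089 for Cldn10 and 0.05 ± 0.073 for Aldoc. The adjusted p was 0.999 for each of the 6 in limma. The 95% intervals bound the differences: the lowest bound was -0.22, for Apoe, and the highest 0.22, for Cldn10. A shift of 0.5 on this scale was recovered for 94 of 100 genes in simulated data of the same size, with 6 false calls among 8535 genes. The calls of the members did not change under any of 15 alternative settings, in which the smallest adjusted p of any member was 0.628.

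Between the sexes, 0 of the 6 genes were called, against 3 of 8535 genes or 0.0351% over the table. The log2 differences, male minus female, ran from -0.02 ± 0.089 (SE) for Cldn10 to 0.02 ± 0.056 for Cpe, with an adjusted p of 1.0 in limma. Apoe ran from 13314 over 21724 to 43133 in 28 females and from 15249 over 21050 to 33062 in 32 males, so that the lowest and the highest mouse were both female. The SD of Apoe was 6526 in females and 4088 in males, and this difference in spread was not tested.

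Whether the difference by phenotype itself differed between the sexes was tested as an interaction. No gene was called by limma (0 of 8535, or 0.0%), with 48 genes at an unadjusted p under 0.05. edgeR and DESeq2 also called 0, with 44 and 48 genes at an unadjusted p under 0.05. The interaction was -0.04 ± 0.148 (SE, log2) for Aldoc, -0.04 ± 0.114 for Cpe, -0.04 ± 0.123 for Gja1, -0.02 ± 0.163 for Apoe, 0.01 ± 0.124 for Glul and 0.03 ± 0.179 for Cldn10.

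**Figure D2:**
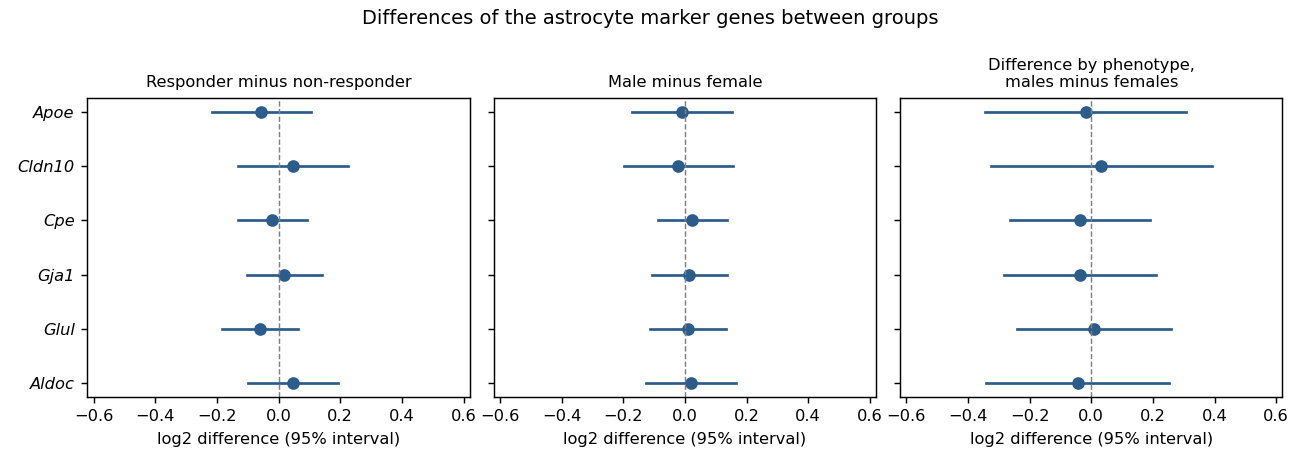
Log2 difference of each astrocyte marker gene with its 95% interval, for responders minus non-responders, for males minus females and for the difference by phenotype in males minus that in females. Points are limma estimates over 60 mice; every interval spans 0, and those of the interaction are the widest, reaching 0.39 for Cldn10.

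Other astrocyte genes did not pass the test by phenotype either. Of 7 genes of glutamate and ion uptake, 0 were called, and the median log2 difference was -0.03 against -0.0033 over all genes. Among them the glutamate transporters Slc1a2 and Slc1a3 were at -0.03 and -0.02. Of 13 genes of the end feet and membrane, 0 were called, with a median of 0.03. Among them Gpr37l1, an astrocyte receptor, was at -0.09 and Mlc1, a membrane protein of the end feet, at 0.05. Of 12 genes of lipid and lipoprotein metabolism, 0 were called, with a median of -0.03. Sparcl1 was at -0.02 and Clu, clusterin, at 0.07.

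The remaining lists gave the same count. Of 12 genes of metabolism and metallothioneins, 0 were called, with a median of 0.02, and the metallothioneins Mt3, Mt1 and Mt2 were at -0.17 ± 0.107 (SE), -0.15 ± 0.103 and -0.06 ± 0.106. Of 8 genes of transcription and calcium binding, 0 were called, with a median of 0.05, and the calcium-binding protein S100b was at 0.20 ± 0.118. Of 20 reactive astrocyte genes, 5 had a row in the gene table and 4 were tested, so that most of this list was not covered. Of those 4, 0 were called, with a median of 0.02. The smallest adjusted p over these 56 genes was 0.28, in limma, for the transcription factor Stat3 at 0.15 ± 0.049.

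The 6 markers varied together over mice. Pearson's r of log2 values was positive for all 15 pairs and each passed the test (two-sided permutation test with 100000 resamples, Benjamini-Hochberg over 15 pairs). The median r was 0.634. Apoe and Cpe had the highest, with r = 0.781 and Spearman's rho = 0.723 (permutation p = 1e-05, the smallest these resamples can give, adjusted 1.5e-05), and r = 0.707 without the 2 mice farthest from the median of Apoe. Apoe and Cldn10 had r = 0.764, rho = 0.770 and 0.745 without those mice. Cldn10 and Cpe had r = 0.760 and Cldn10 and Gja1 had r = 0.728, while Apoe and Aldoc had r = 0.718. The 3 lowest values were all in pairs with Glul or Gja1. Cpe and Glul had r = 0.429, rho = 0.451 (permutation p = 0.0007, adjusted 0.0007) and 0.401 without the 2 mice farthest from the median of Cpe. Gja1 and Aldoc had r = 0.436, and Gja1 and Glul had r = 0.442. Without the 2 farthest mice, all 15 pairs stayed between 0.401 and 0.745.

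Correlation between genes was common in these libraries. Over 36418845 pairs of genes the median r was 0.0017 and the 95th percentile was 0.636, which is close to the median of the 15 marker pairs. The pair of Apoe and Cpe exceeded 98.9% of all gene pairs, and the pair of Cpe and Glul 83.5%. Within the 4 groups of phenotype and sex, with group means removed, the median of the 15 pairs was 0.637. With 3′ bias, depth class and the level of cortical neuron genes held fixed, it was 0.504 and all 15 pairs passed. The share of all gene pairs that would pass was not computed, here or for the sets of mice below. The counts of pairs that passed therefore do not set the markers apart from other genes.

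The median r was lower in the shallow libraries. In the 43 deep libraries the median was 0.622 and 15 pairs passed, and in the 17 shallow libraries it was 0.391 and 5 pairs passed. Those were Cldn10 with Cpe (r = 0.765), with Gja1 (0.699) and with Apoe (0.625), and Apoe with Aldoc (0.617) and with Cpe (0.591). None of the 5 pairs with Glul passed in the shallow libraries, where they ran from 0.128 to 0.293. In 30 non-responders the median was 0.556 and 12 pairs passed, and in 30 responders it was 0.716 and 15 passed. The 3 pairs that did not pass in non-responders were Cpe with Glul, Gja1 with Glul and Gja1 with Aldoc. The differences in r between the depth classes and between the phenotypes were not tested.

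**Figure D3:**
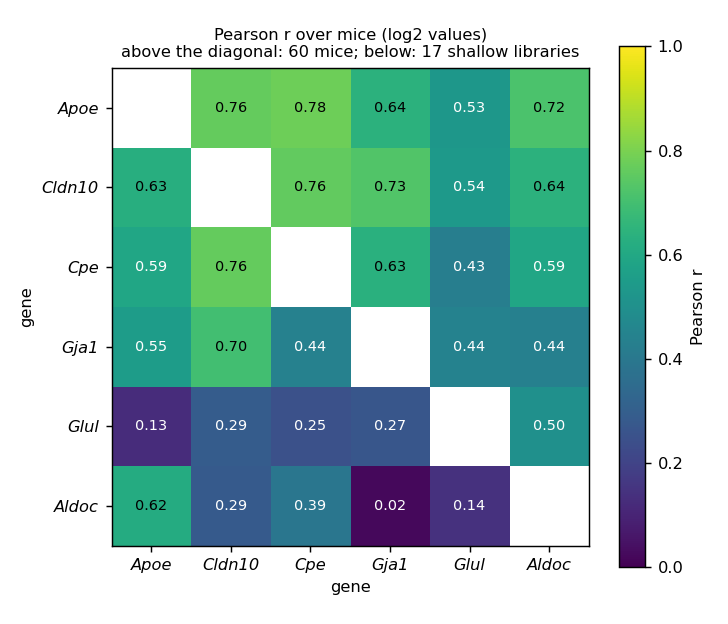
Pearson's r of log2 values for each pair of astrocyte marker genes, above the diagonal over all 60 mice and below it over the 17 shallow libraries; colour and number give r. Above the diagonal r runs from 0.43 to 0.78, and below it from 0.02 for Gja1 and Aldoc to 0.76 for Cldn10 and Cpe.

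The genes closest to each marker over the 60 mice differed from marker to marker. For Gja1 they were Tmem47, Klhl5 and Mlc1, with r of 0.857, 0.822 and 0.813. For Glul they were Acsbg1, which activates long-chain fatty acids, Rab31 and Gpr37l1, with r of 0.697, 0.686 and 0.670. For Aldoc they were Acadl, an enzyme of fatty acid oxidation, Ndrg2 and Poldip2, with r of 0.766, 0.760 and 0.759. Of these, Mlc1, Acsbg1, Gpr37l1 and Ndrg2 are on the astrocyte lists. For Apoe they included Nkain4 and the ribosomal protein gene Rpl8, with r of 0.907 and 0.903. For Cldn10 they were Gm8121, the sugar nucleotide enzyme Ugp2 and C1d, with r of 0.905, 0.904 and 0.901. For Cpe they were Cnbp, Gm12174 and the proteasome subunit Psma6, with r of 0.886, 0.875 and 0.864. With 3′ bias and depth class held fixed, Nkain4 stayed the closest to Apoe at 0.852 and Tmem47 the closest to Gja1 at 0.845. The closest to Cpe was then the glutamate transporter Slc1a3, at 0.782 against 0.711 before, and that to Cldn10 was Atp5mpl at 0.874. These values are a description, and the libraries share depth and coverage. Gpr37l1 lies on chromosome 1, as Glul does, and Poldip2 on chromosome 11, as Aldoc does. A part of shared inheritance in these values was not tested.

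Over the 56 other astrocyte genes, most were positively correlated with each marker. The number with a positive r was 42 for Apoe, 45 for Cldn10, 43 for Cpe, 49 for Gja1, 47 for Glul and 45 for Aldoc, where 44.3% to 47.7% of all genes were positive. The median r was from 0.387 for Glul to 0.530 for Apoe. The antioxidant enzyme Prdx6 was the highest for Apoe (0.838), Cldn10 (0.894) and Cpe (0.830). The lowest was the lipoprotein receptor Lrp1 for Cldn10 (-0.786) and Cpe (-0.779), and the dystroglycan gene Dag1 for Apoe (-0.755) and Aldoc (-0.629).

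The markers also moved with genes of other cell types. Of 30 relations between a marker and the summed level of another cell type list, those with oligodendrocyte and microglia genes were positive for all 6 markers, and those with cortical projection neuron genes were negative. The share of all genes with such relations to these sums was not computed, so the counts do not set the markers apart from other genes. The summed level of 6 oligodendrocyte genes was from 92015 over 152792 to 269550, and that of the 4 cortical genes from 1442 over 4119 to 7997, a wider ratio. For Gja1 r was 0.700 with oligodendrocyte genes (rho = 0.696, adjusted permutation p = 3e-05) and -0.701 with cortical genes (rho = -0.720, adjusted permutation p = 3e-05). For Apoe r was 0.661 with oligodendrocyte genes and -0.606 with cortical genes (rho = 0.659 and -0.608, adjusted permutation p = 3e-05 for both). Without the 2 mice farthest from the median of the list, r with the cortical genes was -0.695 for Gja1 and -0.606 for Apoe. It was -0.758 and -0.643 in deep libraries, and -0.606 and -0.589 in shallow ones.

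Microglia genes gave the highest value with Cldn10, at r = 0.742 (rho = 0.751, adjusted permutation p = 3e-05), and P2ry12, a microglial receptor, was the single gene of the list closest to it at 0.858. Glul had the weakest relations, with r = 0.343 for oligodendrocyte genes, 0.434 for microglia genes and -0.243 for cortical genes, of which the last did not pass (rho = -0.236, adjusted permutation p = 0.0875). For Glul and microglia genes r was 0.534 in deep and -0.040 in shallow libraries. With the sum of 9 genes of medium spiny neurons, the main neurons of the striatum, r was from -0.167 for Glul to 0.176 for Cpe and none of the 6 passed. Single genes of this list went in both directions. Tac1 had r of 0.629 with Apoe, 0.606 with Cpe, 0.536 with Cldn10 and 0.533 with Gja1. Foxp1 had -0.443 with Aldoc and Bcl11b -0.365 with Glul. Each is the gene of the list with the strongest r for that marker, and these values were not tested. With 3 genes of endothelial cells and pericytes r was from -0.371 for Apoe to -0.110 for Aldoc, and Apoe and Gja1 passed (adjusted permutation p = 0.0068 and 0.0395). In shallow libraries these were 0.047 for Apoe, 0.038 for Cldn10, 0.339 for Cpe and 0.022 for Aldoc, of the opposite sign, and -0.088 for Gja1 and -0.050 for Glul. By phenotype, the median of the cortical sum was 4333 in non-responders and 3673 in responders, with none of its 4 genes called.

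The properties of the libraries moved with the markers, as they did with most genes. In a fit with phenotype and sex, 6589 of 8535 genes, or 77.2%, were called for 3′ bias, with 39.4% higher and 37.8% lower. Apoe rose by 0.68 ± 0.103 (SE, log2) per unit of the index (adjusted p = 6.1e-08 in limma), Cldn10 by 0.58 ± 0.128, Cpe by 0.48 ± 0.072 and Aldoc by 0.44 ± 0.109. Gja1 and Glul were at 0.19 ± 0.098 and 0.17 ± 0.100 and did not pass (adjusted p = 0.067 and 0.11 in limma). Thus 4 of 6 were called and all 4 were higher. Without mouse 63, Gja1 passed as well, at 0.30 ± 0.138 (adjusted p = 0.045 in limma). Without the 4 mice of highest index, 42.6% of genes were called, and of the markers Cpe (0.67) and Cldn10 (0.85) but not Apoe (0.49, adjusted p = 0.14 in limma) or Aldoc (0.25, adjusted p = 0.50).

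Between shallow and deep libraries 53% of genes were called, 25.3% higher and 27.7% lower in the shallow ones. Cpe fell by 0.27 on the log2 scale (SE 0.053, adjusted p = 4.1e-05 in limma), Cldn10 by 0.27 (SE 0.092, adjusted p = 0.012) and Apoe by 0.20 (SE 0.086, adjusted p = 0.0498). Cpe was at 28828, 32703 and 37955 in the lowest, median and highest of 17 shallow libraries and at 31959, 38820 and 55584 in 43 deep ones. Without mouse 63 the adjusted p of Apoe was 0.061 in limma, and without the 4 mice of highest index it was 0.13. With all 3 library terms in 1 fit, the depth difference passed for Cpe alone, at -0.17.

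The level of the cortical genes was called for 51% of genes, 26.3% higher and 24.7% lower with it. Per unit of their mean log2 value, Apoe fell by 0.32 (SE 0.054, adjusted p = 2.4e-06 in limma), Cldn10 and Gja1 by 0.26 (SE 0.066 and 0.038) and Cpe by 0.15 (SE 0.043). Aldoc and Glul were at -0.13 and -0.11 and did not pass. In deep libraries alone Aldoc passed, at -0.19 ± 0.077 (adjusted p = 0.032 in limma). Without the 4 mice of highest 3′ bias, Cpe was at -0.09 and did not pass either (adjusted p = 0.072 in limma). The part of any of these library properties in the shared variation of the markers was not tested beyond the fits given here. The 3′ bias index had a median of -0.05 in non-responders and -0.02 in responders.

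**Figure D4:**
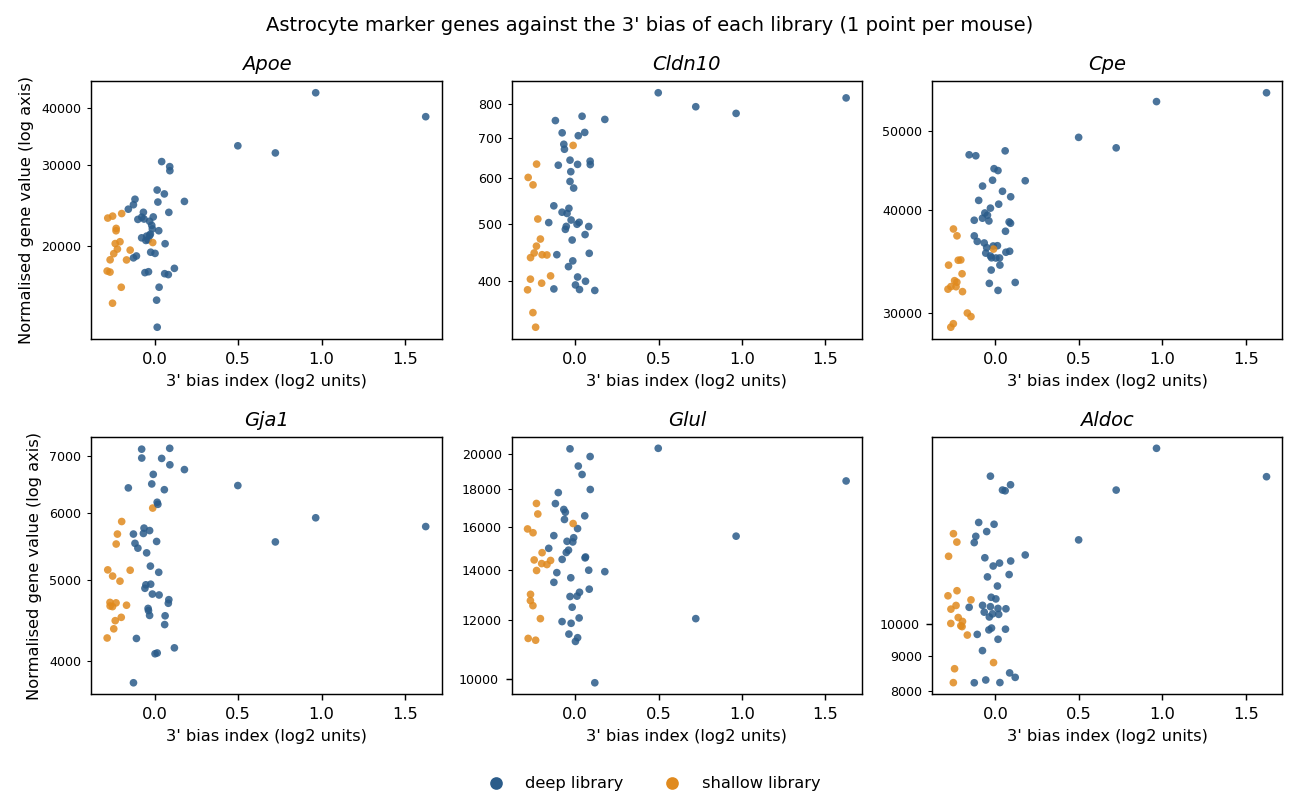
Normalised gene value (log axis) of each astrocyte marker gene against the 3′ bias index of the library, 1 point per mouse, coloured by depth class. The 4 mice at indices from 0.50 to 1.62 hold the 4 highest values of Apoe, Cldn10 and Cpe. They are in places 1, 3, 6 and 13 for Aldoc, 9 to 24 for Gja1 and 1 to 51 for Glul.

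The 41 exon rows of the 6 genes were compared with GENCODE M21 by the distances between their starts. Of these, 30 lay at the distances of the exons of 1 transcript per gene, and 8 at those of an exon of another transcript. The other 3 lay 37, 16 and 30 bases from the nearest exon start, in Cldn10, Cpe and Gja1. Over the mice, 34 of the 41 rows averaged at least 10 and were tested.

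For Cldn10 the row at 119187093, the one 37 bases from the upstream first exon, was at 0 in all 60 mice, where the table holds rounded values. The row of the downstream first exon, at 119253954, ran from 107 over 163 to 262, and the row of the last exon, at 119273414, from 116 over 182 to 394. The downstream first exon is the one that follows the CpG-rich promoter shown above. It took a median of 32.5% of the summed exon values of the gene and the last exon 36.1%. An isoform from the upstream exon was not detectable at this depth.

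The rows of Glul differed in how much they varied between mice. Its last row, at 155754994, ran from 8132 over 11666 to 17325 and held a median of 81.0% of the exon values. The row at 155754150, exon 5 of the main transcript, ran from 8 over 48.5 to 226. The row at 155754416, exon 6, ran from 110 over 503 to 900. The Glul transcript matches the processed pseudogene Glns-ps1 at 96.8% over 1126 aligned bases, from exon 2 into the last exon, of which 319 of 1860 bases are covered. A further processed pseudogene matches over the same stretch at 93.0%. Reads from there can map to more than 1 place, and the values of Glul are uncertain to that extent. Exon 5 is shown as an example, in GRCm38 from GENCODE M21 on the plus strand, with the 3 bases that differ from Glns-ps1 in capitals. The longest stretch without a difference was 77 bases.
Glul exon 5, chr1:153907020-153907147: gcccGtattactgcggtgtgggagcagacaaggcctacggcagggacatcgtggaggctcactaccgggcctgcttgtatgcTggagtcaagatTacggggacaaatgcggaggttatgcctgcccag
Against Glns-ps1, exon 2 differed at 4 of 166 aligned bases, exon 3 at 13 of 162, exon 6 at 3 of 200 and the covered part of the last exon at 7 of 319. Against the other copy, these exons differed at 7, 7, 26 and 18 bases, and exon 5 at 16 of 128. The row of exon 2, at 155750064, ran from 426 over 656 to 906 and that of exon 3, at 155751667, from 786 over 1136 to 1587. The part of the copies in the spread of any row was not tested.

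For the other markers, the last row held the largest share of the exon values. These values are reads per row, not scaled to exon length. The last row lay at an exon of 995 bases in Apoe and of 1520 bases in Aldoc. The row at 20281458 held a median of 78.5% of the exon values of Apoe, and the row at 20282589 held 21.3%. The 4 rows nearer the 5′ end of Apoe had medians of 17, 6, 8.5 and 17, at exons of 40, 37, 98 and 66 bases. The part of exon length in these shares was not tested. For Gja1 the row at 56107340, nearest to the exon that carries the coding sequence, had 96.8% and the first row, at 56097106, had 3.23%. For Aldoc the last row, at 78139764, had 46.6%, and the row at 78138411, an exon of 55 bases, ran from 0 to 8. For Cpe the last row, at 67071355, had 43.1% and the lowest of its 9 rows, at 67076257, ran from 593 over 918 to 1366.

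No exon row of the markers passed the test by phenotype. By level, 0 of 34 rows were called, where 12 of 67578 rows or 0.0178% were called over the table. The smallest adjusted p was 0.815 in limma, for the first row of Cpe, at -0.16 ± 0.061 (SE, log2). By usage, which is the value of a row over the sum of its gene, 0 of 34 were called against 14 of 67134 or 0.0209%. The smallest adjusted p was 0.574 in limma, for the downstream first exon of Cldn10, at -0.10 ± 0.034, and 6 of the 34 rows had an unadjusted p under 0.05, against 4.83% of all rows.

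**Figure D5:**
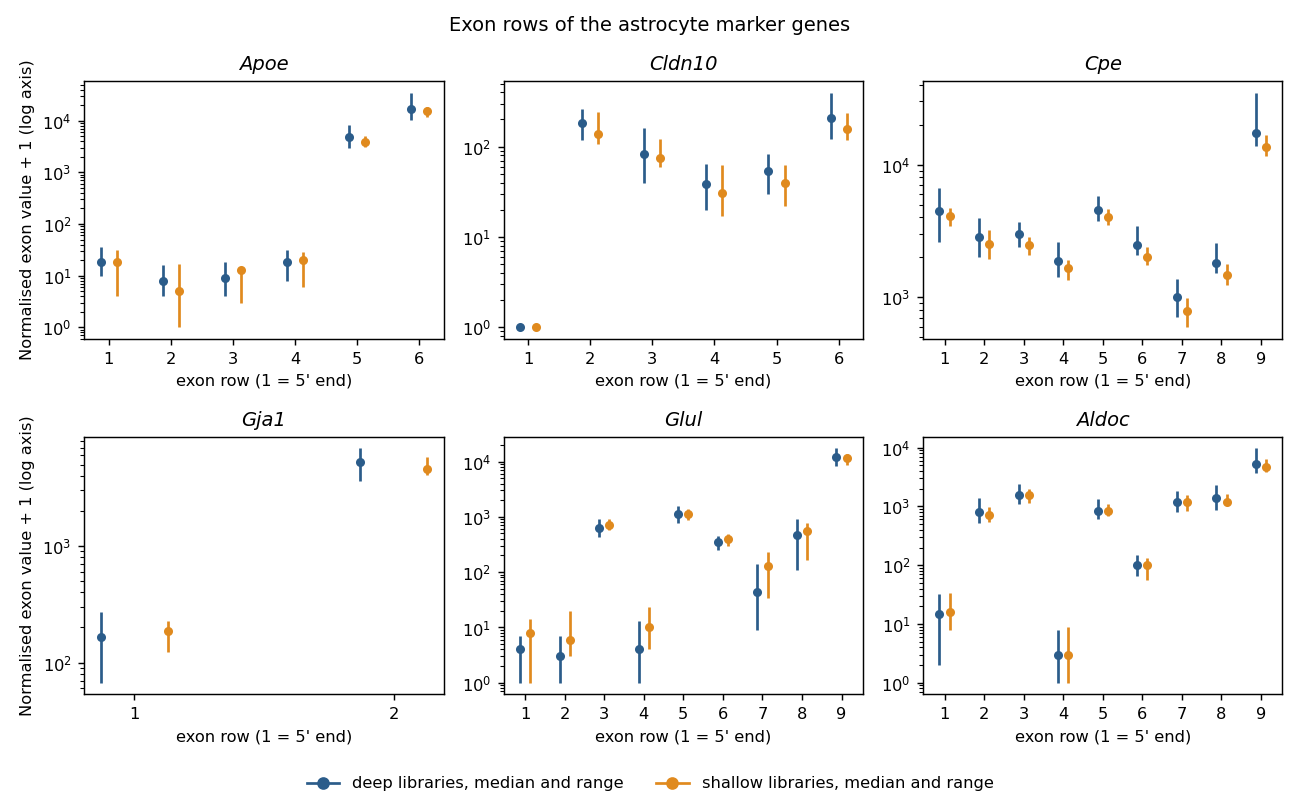
Normalised exon value + 1 (log axis) of each exon row of the 6 astrocyte marker genes, numbered from the 5′ end, with the median (point) and the range (line) in 43 deep and 17 shallow libraries. Row 1 of Cldn10 is at 0 in every mouse, and row 7 of Glul runs from 8 to 140 in deep and from 33 to 226 in shallow libraries.

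Exon usage moved with the depth class of the library. Between shallow and deep libraries, 12 of 34 marker rows were called, 8 higher and 4 lower, against 36.1% of all rows, 22.6% higher and 13.5% lower. The largest was exon 5 of Glul, with medians of 42 in deep and 130 in shallow libraries, which is a rise in usage of 1.47 ± 0.244 (SE, log2, adjusted p = 4.0e-06 in limma). Its share of the gene ran from 0.0517% to 0.937% in deep and from 0.241% to 1.36% in shallow libraries. With 3′ bias in the fit the difference was 1.28 ± 0.268 (adjusted p = 0.00035 in limma). Exon 6 of Glul had medians of 470 and 558 and was not called. For Apoe the last row rose by 0.05 ± 0.012 and the row before it was at -0.17 ± 0.040, both called. The downstream first exon of Cldn10 was not called, and the row after it, at 119260918, rose by 0.21 ± 0.054.

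Along the genes, usage followed the 3′ bias index. Per unit of the index 24 of 34 rows were called, 18 lower and 6 higher. Over all rows 73.0% were called, 56.6% lower and 16.4% higher. All rows include those of the 2170 genes from which the index was computed, while the markers were left out of it. The share over all rows is therefore not fully comparable with that of the markers. The last row rose for Cpe by 0.29 ± 0.031 (SE, log2), for Cldn10 by 0.22 ± 0.040, for Aldoc by 0.18 ± 0.015, for Glul by 0.10 ± 0.013 and for Gja1 by 0.02 ± 0.004. That of Apoe was at 0.02 ± 0.020 and did not pass (adjusted p = 0.28 in limma). The first rows fell, for Gja1 by 0.81 (SE 0.071), for Aldoc by 0.70 (SE 0.262) and for Cpe by 0.62 (SE 0.060). In the 4 mice of highest index, the last row of Cpe had 46.1% to 62.7% of the exon values and that of Gja1 had 97.5% to 98.9%, against 37.6% to 51.4% and 95.7% to 97.4% in the other 56 mice. Exon 5 of Glul fell by 1.52 (SE 0.423) per unit of the index, but with depth class in the fit it was at -0.67 ± 0.404 and did not pass (adjusted p = 0.13 in limma). Its slope was -2.96 without mouse 63 and -5.47 without the 4 mice. Without these 4 mice, 16 of the 34 rows were called, against 37.9% of all rows.

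Connectivity was computed in the manner of the study's networks, with adjacency the absolute correlation to the power of 6 summed over all 9066 genes. In the coexpression network of log2 values Apoe exceeded 91.4% of genes, Cldn10 90.7% and Cpe 88.1%. Gja1 exceeded 57.3%, Aldoc 48.3% and Glul 19%. With 3′ bias held fixed, Cldn10 stood at 96.7%, Apoe at 86.0%, Gja1 at 84.8%, Cpe at 70.8%, Aldoc at 43.1% and Glul at 40%. Cpe thus moved down and Gja1 up when the bias was held fixed, with no test.

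In the cosplicing network, built from cosine distances between mice over the exon values of a gene, the order was different. Aldoc exceeded 89.2% of genes, Cpe 75.1%, Gja1 71.5%, Glul 61.8%, Cldn10 51.1% and Apoe 24.1%. In the CoSplicEx network, built from Canberra distances, which also take up changes in level, Aldoc exceeded 3.74% and Glul 25%, and the other 4 were between 27.9% and 51.7%. Without mouse 63 the cosplicing percentile of Aldoc was 84.4% and its CoSplicEx percentile 4.91%, while that of Cldn10 was 32.9% in cosplicing and 70.8% in CoSplicEx. The CoSplicEx percentiles of Apoe, Glul, Cpe and Gja1 were 51.3%, 53.5%, 59.9% and 27.9% without it, and the cosplicing percentile of Cpe was 55.9%. Aldoc was therefore among the most connected of the markers by splicing and the least connected by CoSplicEx in either set of mice.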

How the data were processed

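PolyA RNA-Seq of striatum was analysed for 60 HS-CC mice, 1 library each. The deposited gene values are a signal: reads per Ensembl 59 gene, scaled by an edgeR upper quartile factor, and aligned with Bowtie 0.12.7 to NCBI m37 (mm9). Whole reads were recovered from the step of each library for 100% of values, within 0.01 reads. The deposited exon values are a score, being scaled exon reads that were rounded.

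The fits used limma 3.58.1 with the trend option in R 4.3.3 on log2(value + 1) of genes and exon rows averaging at least 10, with Benjamini-Hochberg adjustment over the whole table. edgeR 4.0.16 quasi-likelihood and DESeq2 1.42.0 on recovered reads, other filters, pseudocounts, covariates and sets of mice were alternatives. The fits were tested on simulated data. Permutation tests used scipy 1.17.1 and numpy 2.4.6, in Python 3.11.15. Copies were searched with blastn 2.17.0 in GENCODE M21 transcripts at 90% identity or more over at least 200 bases. Symbols were found for 97.7% of gene identifiers.

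The genes named were all markers, the 3 genes of highest r with each, and of other lists the called genes or else those of highest level per kilobase. Some genes that this rule names are not reported here. Genes at the ends of a list's r, and the pairs and exon rows picked out, were chosen after their values were seen. The markers and lists were chosen with earlier results of these data known. Each mouse is 1 library, so p-values measure the spread between mice.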

Additional observations from a re-analysis of the deposited data

How the results depend on the processing

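No marker was called by phenotype, by sex or by their interaction under any setting run, and no exon row of a marker was called by phenotype. Sex and the interaction were not run for exon rows. Counts over the table changed more. Genes called by phenotype (9) were 5 among genes averaging at least 500, 23 with DESeq2, 3 in deep and 0 in shallow libraries, and 20, 61 and 14 with depth class, 3′ bias and cortical level as a covariate. Genes called by sex (3) were 0 in deep and 1 in shallow libraries. Exon rows called by level (12) were 7 with no filter, 2 in deep and 0 in shallow libraries and 75 with 3′ bias as covariate, and by usage (14) they were 8, 0 and 41 in the last 3. The marker pairs that passed were 5 in shallow libraries. Fewer mice were tested in the deep and shallow sets, and otherwise the cause was not tested. Uncalled log2 differences changed sign as follows. By phenotype, Gja1 was -0.012 with cortical level as covariate, and in shallow libraries Aldoc was -0.0096, Cldn10 -0.047 and Apoe 0.022. By sex, Glul was -0.079, Gja1 -0.028 and Aldoc -0.0052 in deep libraries, Gja1 -0.0055 with cortical level, Cldn10 0.12 and Apoe 0.12 in shallow libraries, Apoe 0.0057 with 3′ bias, Cldn10 7.5e-05 and Apoe 0.0215 without mouse 63, and Apoe 0.0223 without the 4 mice. For the interaction, in deep libraries Glul was -0.044, Gja1 0.014, Aldoc 0.038, Apoe 0.081 and Cpe 0.011, Cldn10 was -0.33 in shallow libraries, and Cpe 0.0049 and Apoe 0.042 without mouse 63. The interaction of Apoe was also 0.0084 and 0.0033 with edgeR (TMM, RLE), 0.0033 with DESeq2, 0.0066 with 3′ bias and 0.0105 with cortical level. With all 3 terms in 1 fit, Gja1 was -0.048 per unit of 3′ bias. No r of a marker pair changed sign. No paired analysis was possible because mouse numbers are unique and pair no animals. The settings that name library terms for the markers, the exon usage by depth and bias, and pairs by phenotype were chosen after seeing the data. Depth limits Cldn10, with 150 to 1217 reads per library, and rows near 0.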
